A study of Rattus norvegicus with 46 samples.

Results

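Nuclear receptors were followed across the liver and the quadriceps muscle of DIO (diet-induced obese) rats. Members were taken by gene symbol from a list of 35 receptors, and 34 of them were found among the 32552 genes counted. Nr3c1, the glucocorticoid receptor, was not analysed here. RNA of whole tissue was sequenced in 3 groups per tissue. CagriSema rats received a combination of the long-acting amylin analog cagrilintide and the GLP-1 receptor agonist semaglutide. Weight-matched rats had their food restricted, and vehicle rats were the control. All groups carried the genotype label WT and shared the diet-induced obesity. The stated 20 days of treatment refer to the liver, and no length is given for the muscle. Liver libraries numbered 7 with CagriSema, 8 with weight matching and 8 with vehicle, and quadriceps libraries 8, 8 and 7 in the same order. The labels give no strain, sex or age and do not state whether the libraries of a group are from different animals. P-values therefore measure the spread between these libraries.

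Nuclear receptors are transcription factors whose activity is set by small lipid-soluble molecules. Thyroid hormone, retinoic acid, vitamin D, fatty acids, oxysterols and bile acids are among their ligands, and many of the receptors bind DNA as pairs with a retinoid X receptor. In liver they are known for controlling bile acid, lipid and drug metabolism, and in muscle for controlling oxidative metabolism. An mRNA level gives neither the amount of ligand nor the activity of the protein. In whole tissue, fewer cells of a type and less RNA per cell cannot be told apart.

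Each liver library held 9888858 to 15948219 counts, and each quadriceps library 11462369 to 16525274. With 3 counts as the floor, a gene without counts in a library could still be at up to 0.188 to 0.303 CPM in liver or 0.182 to 0.262 CPM in quadriceps, counting error only. CPM are counts scaled to a common library size. Tissue labels were checked with marker genes. Hepatocyte markers summed to 99280 CPM or more in every liver library and to at most 109 CPM in every quadriceps library. Myofibre markers summed to 106808 CPM or more in every quadriceps library and to at most 81.6 CPM in every liver library. Some vehicle libraries stood apart. Liver vehicle library 4 had 1.84% of its counts in ribosomal protein genes, against at most 0.928% in any other liver library, and liver vehicle library 6 had 9.29% in mitochondrial genes, against at most 5.81%. For several results whose call or size depended on them, values without these libraries or ranges over alternative fits are given. In quadriceps, vehicle libraries 2 and 5 were left out together as an alternative. They had the highest ribosomal protein shares there, 0.929% and 0.957%. Quadriceps vehicle library 8, with 22.8% in mitochondrial genes against at most 19.0% in the others, was kept in that fit.

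Most receptors differed between the tissues. Between vehicle libraries, 21 of the 33 receptors tested differed with an adjusted p under 0.05 and by more than 2-fold (edgeR's quasi-likelihood test), 15 higher in liver and 6 higher in quadriceps. The same rule called 55.3% of all 14110 genes tested. Levels here are CPM with both tissues scaled together by TMM, given as mean ± SD of 8 liver and 7 quadriceps libraries. Transcript length was not used, so levels are compared between tissues and not between genes.

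The receptors Hnf4a, Nr1i2, Nr1h4, Nr5a2 and Hnf4g had almost no counts in quadriceps. Hnf4a, the hepatocyte nuclear factor that keeps liver genes active, had 588 ± 70.6 CPM in liver and 0.0519 ± 0.137 CPM in quadriceps, or 62451 counts against 5 over the whole vehicle groups. That is a depth-adjusted ratio of 11524, with an exact 95% interval of 4938 to 35492 for counting error. All 5 of those quadriceps counts were in vehicle library 2, and the interval does not cover the spread between libraries. Nr1i2, the pregnane X receptor that senses drugs, had 25379 counts in liver and 5 in quadriceps, a ratio of 4683 (2006 to 14424). Of its 5 quadriceps counts, 4 were in vehicle library 2. Nr1h4, the bile acid receptor FXR, had 8008 counts in liver and 2 in quadriceps, a ratio of 3694 (1022 to 30510). Nr5a2, a receptor that takes part in bile acid synthesis, was at 70.7 ± 14.6 CPM in liver and 0.168 ± 0.153 CPM in quadriceps, a log2 difference of 8.60 ± 0.28 (SE, adjusted p = 2.52e-30). Hnf4g, a relative of Hnf4a, was at 4.24 ± 1.96 CPM in liver and had no count in the 7 quadriceps libraries, which makes it at least 145-fold higher in liver, with 3 counts over the group as the floor. These 5 receptors were too low for a test between treatments in quadriceps.

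The remaining liver-biased receptors were present in both tissues. The small heterodimer partner Nr0b2, an FXR target that represses bile acid synthesis, was 4.20 higher in liver on the log2 scale. The oxysterol receptor Nr1h3 (LXR alpha) was 3.22 higher, the retinoic acid receptor Rarb 3.15 higher and the oestrogen receptor Esr1 2.65 higher. Ppara, the fatty acid receptor that drives hepatic fat oxidation, was 2.15 higher, and the orphan receptor Nr2f6 was 2.14 higher. Differences between 1.09 and 1.27 were found for Nr2f2, Pparg, Nr1i3 and Rxra.

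Thra, Esrra, Ppard, Vdr, Nr3c2 and Esrrb were higher in quadriceps. Thra, the thyroid hormone receptor that predominates in muscle, had 12.1 ± 1.22 CPM in liver and 79.5 ± 11.9 CPM in quadriceps, a log2 difference of -2.71 ± 0.09 (adjusted p = 1.36e-29). Esrra, an oestrogen-related receptor that works with PGC-1 alpha on mitochondrial genes, had 35.7 ± 4.91 CPM in liver and 162 ± 24.4 CPM in quadriceps (-2.19 ± 0.09, adjusted p = 2.05e-26). Ppard, a fatty acid receptor of oxidative muscle, had 8.0 ± 2.28 CPM in liver and 30.1 ± 4.56 CPM in quadriceps (-1.91 ± 0.14, adjusted p = 2.09e-17). Vdr, the vitamin D receptor, was scarce in vehicle liver at 0.538 ± 0.349 CPM and stood at 3.22 ± 0.847 CPM in quadriceps (-2.52 ± 0.33, adjusted p = 3.30e-09). Nr3c2, the mineralocorticoid receptor, was -1.44 on the log2 scale. Esrrb, another oestrogen-related receptor, had 3 counts in liver and 65 in quadriceps over the whole vehicle groups, a ratio of 0.0426 (0.00856 to 0.130).

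The other receptors did not pass both conditions. Their fitted differences lay between -0.98 for Esrrg and 0.76 for Rara. Among those with an adjusted p under 0.05 but less than 2-fold, Rarg, Rxrg, Rxrb, Nr2c2 and Rora were negative and Thrb was positive. By edgeR, 29 of the 33 receptors had an unadjusted p under 0.05 (84.0% of all genes). Nr1h2 was at 48.8 ± 10.4 CPM in liver and 50.1 ± 2.84 CPM in quadriceps, and Nr2c1 at 19.0 ± 3.11 and 19.2 ± 3.79 CPM. Nr2f1 and Nr6a1 averaged 2.0 CPM or less in both tissues. Rorb, a receptor known from retina and brain, had no count in vehicle liver and 6 counts in vehicle quadriceps and was tested nowhere.

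**Figure D1:**
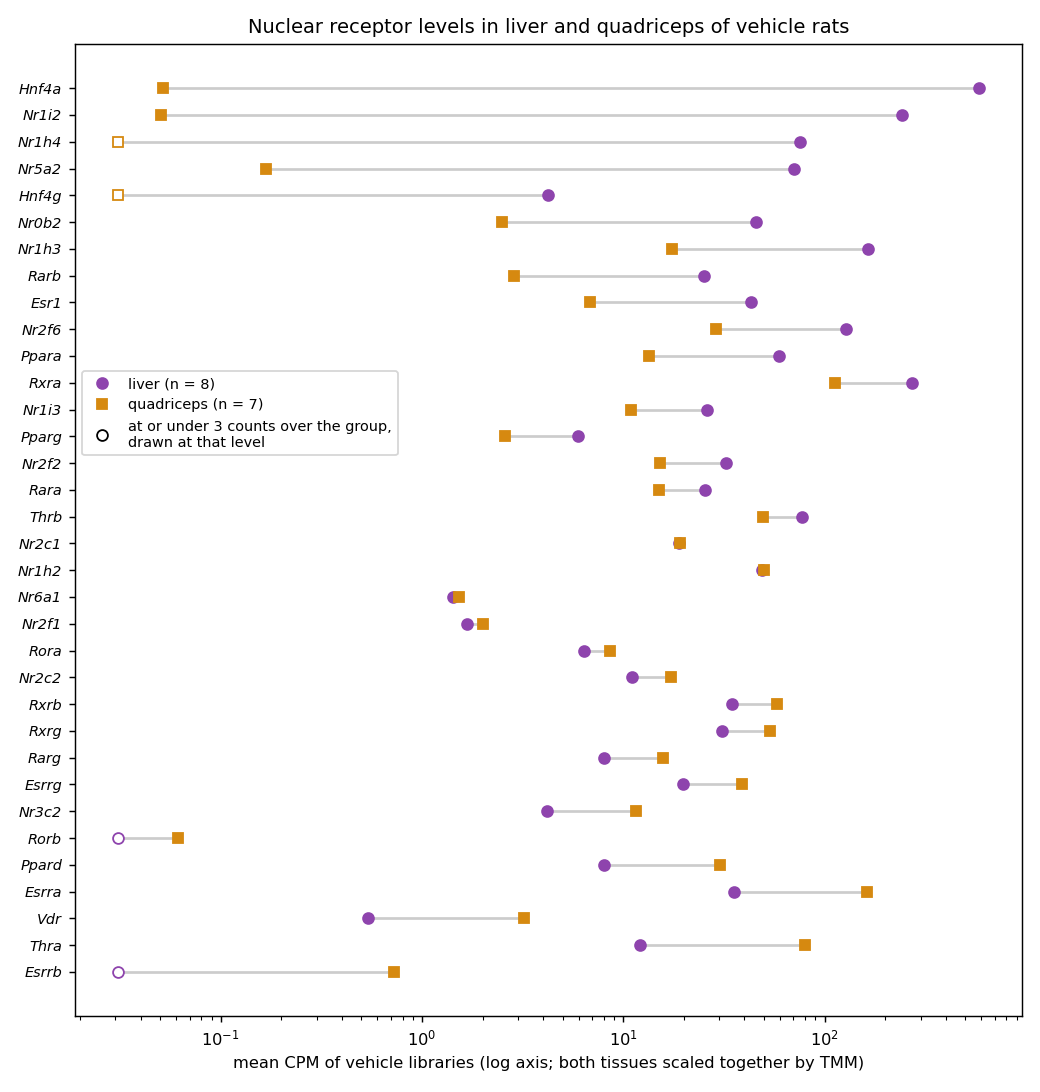
Mean CPM of each nuclear receptor in 8 liver (circles) and 7 quadriceps (squares) vehicle libraries on a log axis, ordered by the liver to quadriceps ratio. Hnf4a, Nr1i2 and Nr1h4 at the top span 588 to 0.0519, 242 to 0.0505 and 75.3 to 0.0225 CPM between liver and quadriceps, while Thra, Vdr and Esrrb at the bottom lie further right in quadriceps.

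The tissue split also ran between close relatives that share a ligand. The ratio of the counts of 2 genes within a library is free of library scaling, and gene length cancels when the ratio is compared between libraries. Thrb over Thra, the pair of thyroid hormone receptors, was 2.93 to 9.05 with a median of 6.58 over the 23 liver libraries and 0.501 to 0.887 with a median of 0.674 over the 23 quadriceps libraries. Nr1h3 over Nr1h2, the oxysterol receptors LXR alpha and LXR beta, was 2.45 to 4.29 in liver and 0.270 to 0.517 in quadriceps. Rarb over Rarg was 1.18 to 7.17 in liver and 0.0615 to 0.267 in quadriceps. For these 3 pairs the tissues did not overlap. The pairs were chosen, and other gene pairs were not counted. Since 55.3% of all genes tested were called between the tissues, such a separation cannot be read as particular to receptors.

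For the other 2 pairs 1 liver library broke the separation. Ppara over Ppard had a median of 7.97 in liver and lay between 0.275 and 0.638 in quadriceps, but liver vehicle library 4 was at 0.551. The lowest ratio with CagriSema was 5.66 and with weight matching 4.16. Rxra over Rxrg had a median of 14.6 in liver and lay between 1.57 and 2.75 in quadriceps, and liver vehicle library 4 was at 1.18. Within liver, this ratio ran from 9.95 to 18.5 with CagriSema, from 12.2 to 21.0 with weight matching and from 1.18 to 14.6 with vehicle, so all groups overlapped.

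**Figure D2:**
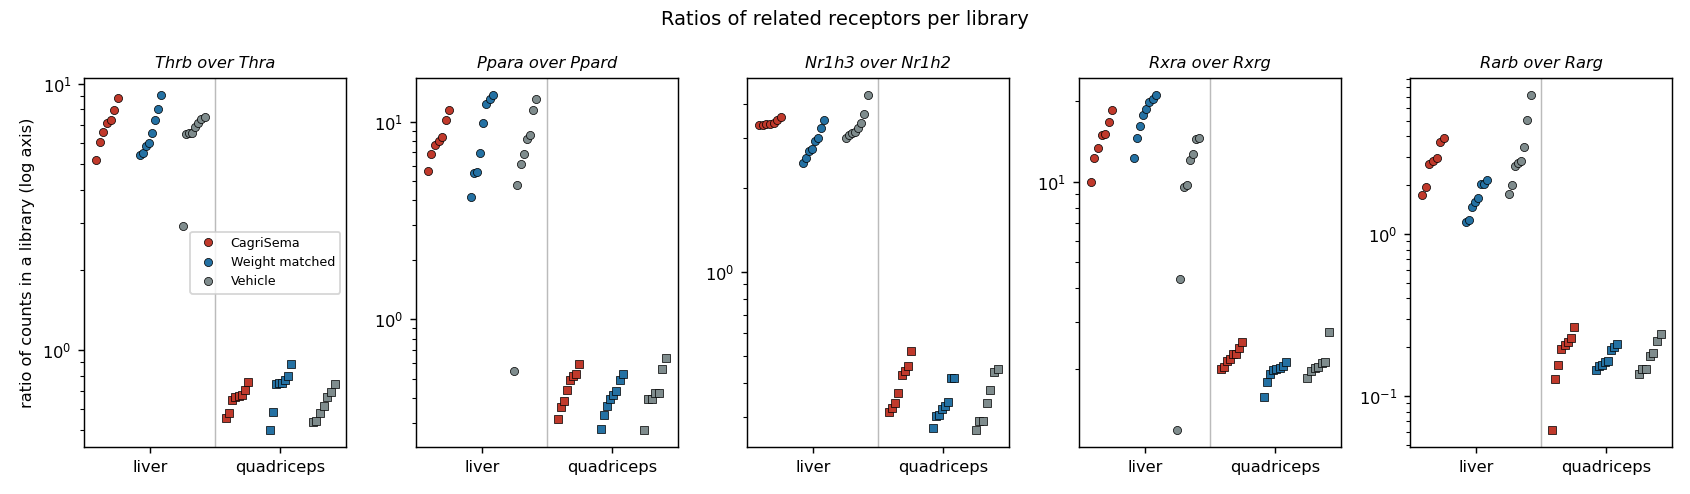
Ratio of the counts of 2 related receptors in each library, on log axes, for liver (circles, left) and quadriceps (squares, right), coloured by treatment. Thrb over Thra, Nr1h3 over Nr1h2 and Rarb over Rarg separate the tissues completely, with medians of 6.58 against 0.674, 3.27 against 0.339 and 2.14 against 0.177 in liver against quadriceps; the single liver points at 0.551 and 1.18 are vehicle library 4.

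Weight matching against vehicle in liver asked what food restriction alone did to the receptors. Of 32 receptors tested, 5 passed an adjusted p of 0.05, where 7.02% of all 12702 genes tested did. Vdr and Nr1i3 rose, and Rarb, Rxrg and Nr1h3 fell. The median log2 fold change was 0.18 over the receptors and -0.01 over all genes, with 23 receptors above 0 and 9 below. Vehicle library 4 was the lowest of all 23 liver libraries for 15 of these 32 receptors. The signs were not counted over all genes or without that library. CPM values of this and the following comparisons were scaled within the tissue.

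Vdr, which binds the active form of vitamin D and in liver is known mainly from non-parenchymal cells, showed the largest change of the receptors. It ran from 0.228 to 1.79 CPM with a median of 1.14 in CagriSema livers, from 2.20 to 5.27 CPM with a median of 3.74 in weight-matched livers and from 0 to 1.07 CPM with a median of 0.496 in vehicle livers. In raw counts these were 3 to 28, 32 to 78 and 0 to 14 per library. Every weight-matched library lay above every CagriSema and every vehicle library, while CagriSema and vehicle overlapped. Vdr was the only receptor whose weight-matched and vehicle libraries did not overlap, which held for 0.811% of all genes tested.

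The log2 fold change of Vdr with weight matching was 2.75 ± 0.39 against vehicle (adjusted p = 0.000782). It passed in all 16 fits that left out 1 library, at 2.61 to 2.94. Because only 3 of 8 vehicle libraries and 5 of 7 CagriSema libraries, but all 8 weight-matched ones, reached the level of the low-count filter (0.713 CPM), the fit was repeated without that filter, which gave an adjusted p of 0.000498. In quadriceps Vdr averaged 3.30 ± 0.814 CPM with CagriSema, 2.84 ± 0.762 CPM with weight matching and 3.16 ± 0.828 CPM with vehicle, and the groups overlapped.

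Other liver cell types were read from marker genes beside the Vdr result. Stellate cell markers summed to 127 to 199 CPM with CagriSema, 87.6 to 190 CPM with weight matching and 84.2 to 124 CPM with vehicle, and 0 of 6 passed in the comparison of weight matching with vehicle. Kupffer cell and macrophage markers summed to 386 to 507, 188 to 528 and 90.7 to 701 CPM in the same order, with 0 of 9 passing. Cholangiocyte markers summed to 13 to 32.9, 13.7 to 27.5 and 15.5 to 49.3 CPM, with 0 of 3 passing. All 3 sums overlapped between weight matching and vehicle. The stellate sums of CagriSema livers lay just above those of vehicle livers, at 127 or more against at most 124 CPM. Between those 2 groups 0 of 6 stellate markers passed. Endothelial markers summed to 238 to 343, 239 to 353 and 128 to 292 CPM, with 0 of 5 passing. Fibroblast markers summed to 20.6 to 30.7, 16.2 to 32.4 and 11.9 to 18.1 CPM, and 1 of 3 tested, Pdgfra, rose by 0.66 (adjusted p = 0.0204). Fibroblast sums of CagriSema livers also lay above those of vehicle livers, and Pdgfra rose by 0.81 with CagriSema against vehicle (adjusted p = 0.0449). The part of these cells in the result was not tested.

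The start of Vdr is shown because this gene carried the largest treatment difference. The sequence is the RefSeq promoter in the rat build GRCr8, chr7:130916708-130917007, minus strand, 250 bases before and 50 after the annotated start, with capitals for the GC box GGGCGG, the letters bound by SP1-type factors. It holds the box 2 times, at bases 143 to 148 and 170 to 175.
Vdr: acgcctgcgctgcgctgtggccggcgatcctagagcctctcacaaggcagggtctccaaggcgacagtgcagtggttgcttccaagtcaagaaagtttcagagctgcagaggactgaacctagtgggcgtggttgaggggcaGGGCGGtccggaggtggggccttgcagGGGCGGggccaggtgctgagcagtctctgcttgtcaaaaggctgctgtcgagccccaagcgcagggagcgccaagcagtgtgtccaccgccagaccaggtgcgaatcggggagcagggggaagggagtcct
Searched on both strands, GGGCGG stood in 33.1% of the 33469 promoters of the same length and in 19 of the 36 promoters found for 29 of the receptors. The nuclear receptor half-site AGGTCA was not in this window; it stood in 16.2% of all promoters and in those of Esrrg, Nr5a2 and Rarg. A match is a description of the letters only.

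Vitamin D biology around the receptor showed 1 change. Of 3 vitamin D handling genes tested, Cyp27a1, an enzyme that hydroxylates both sterols and vitamin D, rose by 0.39 ± 0.12 (adjusted p = 0.0449). The classical target Cyp24a1, which breaks vitamin D down, had no count in any of the 46 libraries. The calcium channel Trpv6, another target, averaged 1.85 ± 0.450 CPM with CagriSema, 1.55 ± 0.506 CPM with weight matching and 2.07 ± 0.685 CPM with vehicle in liver and did not pass.

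A retinoic acid receptor and its partner Rxrg fell in the same comparison. Rarb, a retinoic acid receptor whose own gene is a textbook target of retinoic acid, ran from 15.4 to 31.3 CPM with a median of 22.5 in CagriSema livers, from 11.5 to 16.6 CPM with a median of 15.5 in weight-matched livers and from 16.3 to 38.7 CPM with a median of 25.8 in vehicle livers. Only the lowest vehicle library reached into the weight-matched range. The log2 fold change of weight matching against vehicle was -0.78 ± 0.17 (adjusted p = 0.00722), and it passed in all 16 fits that left out 1 library, at -0.86 to -0.67. Over 5 other alternative fits it was -0.78 to -0.63 and passed in each. Rara averaged 26.3 ± 2.30, 22.8 ± 2.90 and 25.9 ± 3.16 CPM, and Rarg 8.48 ± 1.06, 9.27 ± 1.43 and 8.19 ± 1.79 CPM, with CagriSema, weight matching and vehicle, and neither passed.

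The start of Rarb is shown because it carries the repeat through which retinoic acid is known, in human and mouse, to act on this gene. The sequence is the RefSeq promoter in GRCr8, chr15:11336142-11336441, plus strand, with the direct repeat of the retinoic acid response element, searched as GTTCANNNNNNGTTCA, in capitals at bases 276 to 291.
Rarb: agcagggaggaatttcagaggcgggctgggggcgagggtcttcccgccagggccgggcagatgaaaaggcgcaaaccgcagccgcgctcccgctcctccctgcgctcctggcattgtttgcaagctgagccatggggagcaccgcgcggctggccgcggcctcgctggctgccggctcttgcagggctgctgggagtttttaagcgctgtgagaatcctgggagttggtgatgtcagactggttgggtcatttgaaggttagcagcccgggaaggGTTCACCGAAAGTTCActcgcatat
Searched on both strands, the repeat with any 6 letters in its middle stood in 140 of 33469 promoters, or 0.418%, and among the receptors only at Rarb. The 16 letters in capitals were taken from this promoter, and the only 1 of 33469 that held them was Rarb itself. Of 5 retinoic acid target genes and 6 retinoid handling genes tested, none passed in this comparison. Cyp26a1, the retinoic acid degrading enzyme and a sensitive target, averaged 0.856 ± 0.448 CPM with CagriSema, 1.11 ± 0.471 CPM with weight matching and 1.24 ± 1.02 CPM with vehicle.

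Among the retinoid X receptors, the common partners of many members, only Rxrg passed. It ran from 17.9 to 31.6 CPM with a median of 23.6 in CagriSema livers, from 15.9 to 25.7 CPM with a median of 19.0 in weight-matched livers and from 20.8 to 49.7 CPM with a median of 31.1 in vehicle livers. The upper part of the weight-matched range overlapped vehicle. Its log2 fold change was -0.70 ± 0.16 (adjusted p = 0.00847), and -0.77 to -0.57 with 1 library left out, all passing. Without vehicle libraries 4 and 6 it was -0.51 and passed. Rxra averaged 339 ± 17.4 CPM with CagriSema, 334 ± 22.1 CPM with weight matching and 277 ± 103 CPM with vehicle, where library 4 alone was at 44.0 CPM. Rxrb averaged 34.2 ± 1.91, 39.9 ± 2.97 and 35.3 ± 5.05 CPM in the same order.

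Among the sterol and xenobiotic sensors, Nr1h3 fell and Nr1i3 rose. Nr1h3, which turns on fatty acid and cholesterol efflux genes when oxysterols bind, ran from 134 to 150 CPM with a median of 143 in CagriSema livers, from 116 to 142 CPM with a median of 130 in weight-matched livers and from 132 to 239 CPM with a median of 160 in vehicle livers. The groups overlapped, and the highest value was vehicle library 4. Its log2 fold change with weight matching was -0.36 ± 0.09 (adjusted p = 0.0194), passing in all 16 fits with 1 library left out but not when only the 2 groups were fitted (adjusted p = 0.0787). Without vehicle libraries 4 and 6 it was -0.24 (adjusted p = 0.0223).

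Nr1i3, the constitutive androstane receptor that turns on drug-metabolising enzymes, was the most variable receptor in liver, with a median coefficient of variation of 0.584 over the 3 groups. It ran from 14.9 to 112 CPM with a median of 62.0 in CagriSema livers, from 25.6 to 114 CPM with a median of 75.2 in weight-matched livers and from 7.60 to 65.6 CPM with a median of 22.0 in vehicle livers. All groups overlapped. Its log2 fold change with weight matching was 1.44 ± 0.42 (adjusted p = 0.0374). The call held in 5 of 16 fits that left out 1 library and was lost without vehicle library 1, 3, 4, 5, 6 or 8 or weight-matched library 25, 27, 30, 31 or 32, with adjusted p-values of 0.0526 to 0.0757. Without vehicle libraries 4 and 6 it was 1.18 (adjusted p = 0.118).

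Genes driven by these sensors are given beside them, from lists chosen with earlier results of these data known. Of 4 genes tested for the pregnane X and constitutive androstane receptors, Cyp3a23-3a1, a drug-oxidising cytochrome P450, rose by 0.55 ± 0.12 (adjusted p = 0.00805) and Por, the reductase that serves such enzymes, by 0.62 ± 0.17 (adjusted p = 0.0257). Of 9 oxysterol receptor targets, Scd, a desaturase of the lipogenic pathway, fell by 3.24 (adjusted p = 0.00142) and Lpcat3, which remodels phospholipids, fell by 0.29 (adjusted p = 0.0389). Scd is also driven by insulin signalling.

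Of 3 targets of the bile acid receptor and Nr0b2, Cyp7a1, which catalyses the first and limiting step of bile acid synthesis, rose by 1.25 (adjusted p = 0.0208), while Cyp8b1, which sets cholic acid output, fell by 0.96 (adjusted p = 0.00126). Cyp7a1 averaged 180 ± 45.1 CPM with CagriSema, 236 ± 73.4 CPM with weight matching and 99.0 ± 86.7 CPM with vehicle. Nr0b2 itself, the repressor of both enzymes, ran from 20.7 to 51.8 CPM with CagriSema, from 5.43 to 41.7 CPM with weight matching and from 5.59 to 142 CPM with vehicle, and its fold change of -0.79 did not pass. Nr1h4 averaged 84.4 ± 15.9, 92.6 ± 26.4 and 76.9 ± 13.5 CPM in the same order and did not pass.

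The fatty acid and thyroid hormone receptors did not pass, though some of their targets did. Ppara averaged 79.7 ± 11.3 CPM with CagriSema, 82.8 ± 24.5 CPM with weight matching and 60.6 ± 29.2 CPM with vehicle, where library 4 was at 3.28 CPM. Of 14 PPAR targets tested, Fabp1, a fatty acid binding protein, fell by 1.02 (adjusted p = 0.0114) and Cyp4a1, a fatty acid hydroxylase, fell by 0.86 (adjusted p = 0.0139), and none rose. Thra averaged 11.8 ± 1.26, 12.6 ± 1.88 and 12.4 ± 1.29 CPM and Thrb 81.2 ± 5.84, 82.5 ± 7.20 and 78.6 ± 16.3 CPM with CagriSema, weight matching and vehicle. Of 5 thyroid hormone targets, Me1, the malic enzyme, fell by 1.79 (adjusted p = 0.00536) and Thrsp, a lipogenic protein, fell by 1.06 (adjusted p = 0.0170).

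Targets of the glucocorticoid receptor moved while the receptor itself was not analysed here. Of 8 tested, Fkbp5, a chaperone induced by glucocorticoids, rose by 0.77 (adjusted p = 0.0224) and the clock gene Per1 rose by 0.68 (adjusted p = 0.0319). Serpina6, the corticosteroid-binding globulin of plasma, was the only one of 6 glucocorticoid handling genes to pass, and fell by 0.89 (adjusted p = 0.00620). Among receptors outside the list of members, Nr1d1, the clock receptor REV-ERB alpha, fell by 0.64 (adjusted p = 0.0219). Of 8 Hnf4a targets Serpina1 fell by 0.65 (adjusted p = 0.00262), and Hnf4a itself averaged 642 ± 62.4, 600 ± 73.3 and 600 ± 71.5 CPM. None of 16 coregulators, 3 thyroid hormone handling genes or 6 targets of the oestrogen-related receptors passed.

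**Figure D3:**
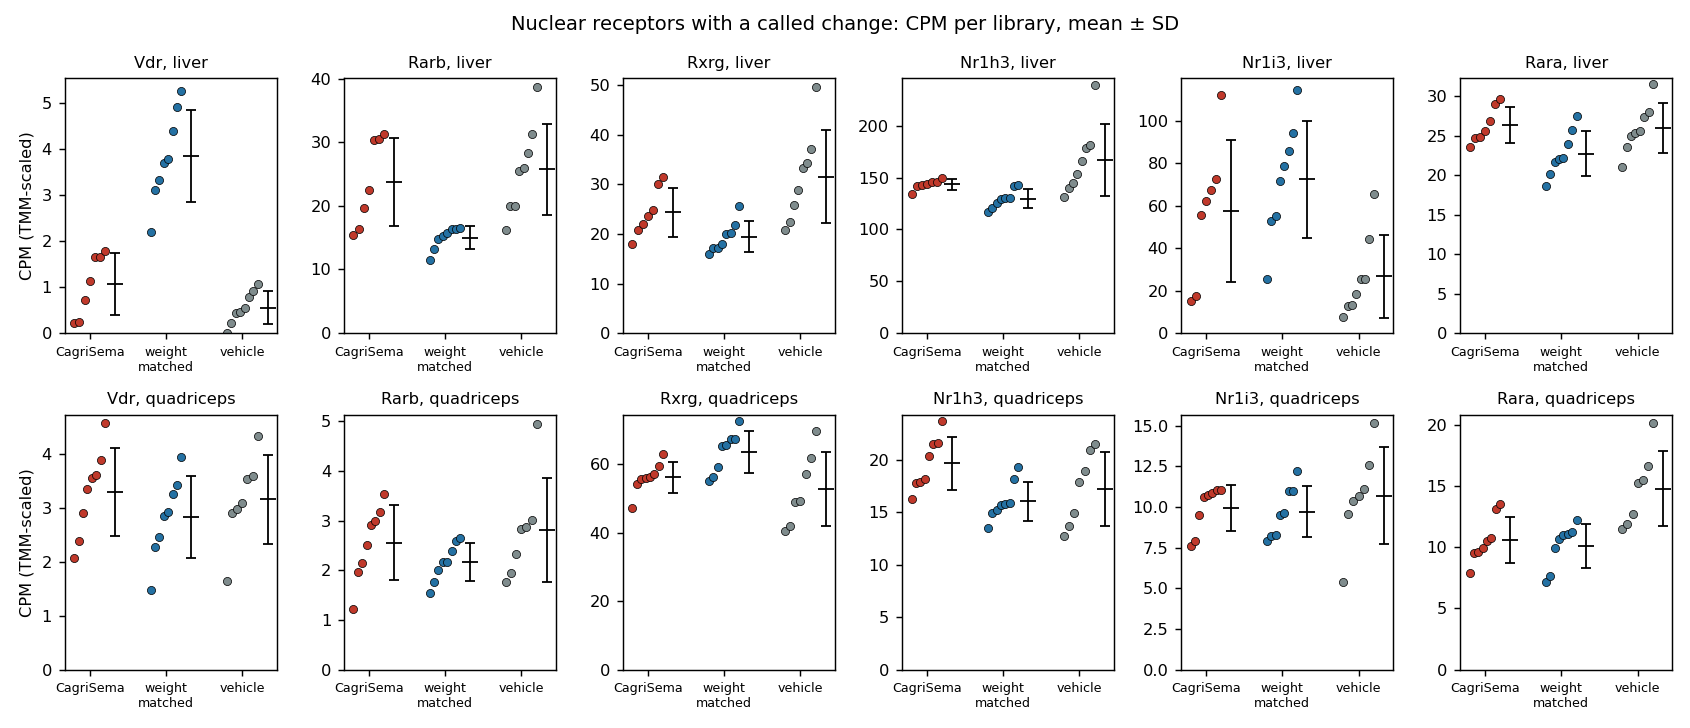
CPM of the 6 receptors with an adjusted p under 0.05 in any treatment comparison, per library, in liver (top) and quadriceps (bottom), with CagriSema, weight-matched and vehicle groups from left to right. Bars give mean ± SD; Vdr in weight-matched livers (3.84 ± 0.999 CPM) lies apart from CagriSema (1.06 ± 0.673) and vehicle (0.549 ± 0.355), while other panels overlap.

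CagriSema against vehicle in liver asked what the drug combination did. None of the 32 receptors passed, where 0.354% of all 12702 genes tested did. At an unadjusted p under 0.05, edgeR's quasi-likelihood test held 8 receptors (17.8% of all genes), and DESeq2 called none after adjustment. The 4 with the lowest p were Nr2f6, an orphan receptor (-0.42 ± 0.13, adjusted p = 0.141), Nr1i2 (0.35 ± 0.13, adjusted p = 0.177), Nr1i3 (1.11 ± 0.42, adjusted p = 0.201) and Esrrg (0.37 ± 0.15, adjusted p = 0.205).

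In CPM, Nr2f6 ran from 93.0 to 104 with CagriSema, from 84.3 to 110 with weight matching and from 98.6 to 234 with vehicle, and Nr1i2 averaged 314 ± 47.6, 315 ± 50.8 and 247 ± 49.4. The vehicle value of 234 CPM for Nr2f6 was library 4, and without it the log2 fold change with CagriSema was -0.24 (adjusted p = 0.0852). Without vehicle libraries 4 and 6 it was -0.19 (adjusted p = 0.153). The mean with CagriSema stood between the other 2 groups for 18 of the 32 receptors, above both for 7 and below both for 7. This order was not counted over all genes. Both comparisons with vehicle share the vehicle libraries. Of the glucocorticoid receptor targets, Fkbp5 rose by 0.93 (adjusted p = 0.0484) and Pck1, a gluconeogenic enzyme, fell by 0.75 (adjusted p = 0.0433), 2 of 8 tested.

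CagriSema against weight matching in liver compared drug and food restriction. One receptor, Vdr, was lower with CagriSema, as 1 of 32 tested, where 0.535% of all genes tested passed. Its log2 difference was -1.84 ± 0.37 (adjusted p = 0.0202). It passed in 14 of 15 fits that left out 1 library and was lost without CagriSema library 39 (-1.76, adjusted p = 0.0610). Its 2 groups did not overlap, as for 1.27% of all genes tested. Rarb was 0.67 ± 0.17 higher with CagriSema and did not pass (adjusted p = 0.0904), but passed with DESeq2 (0.0215), with only the 2 groups fitted (0.0220) and without vehicle libraries 4 and 6 (0.0215).

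Pparg, the fatty acid receptor of adipocyte differentiation, had the next lowest p, with -0.73 ± 0.27 (adjusted p = 0.259). It ran from 1.58 to 6.45 CPM with CagriSema, from 3.12 to 9.76 CPM with weight matching and from 2.69 to 8.66 CPM with vehicle, and all groups overlapped. Rxrb was -0.22 ± 0.08 (adjusted p = 0.259, and 0.0286 with only the 2 groups fitted). No gene of the target, ligand handling or coregulator lists passed.

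In quadriceps 1 receptor passed with food restriction, and its call depended on the fit. With weight matching against vehicle it was 1 of 28 receptors tested (3.57%), close to the 2.29% of all 12471 genes tested. Rara, a retinoic acid receptor, fell. It ran from 7.90 to 13.5 CPM with a median of 10.2 in CagriSema muscles, from 7.17 to 12.2 CPM with a median of 10.8 in weight-matched muscles and from 11.5 to 20.1 CPM with a median of 15.2 in vehicle muscles. Weight-matched and vehicle ranges overlapped between 11.5 and 12.2 CPM. The log2 fold change was -0.55 ± 0.13 (adjusted p = 0.0319). The call was lost in 5 of 15 fits with 1 library left out, without vehicle library 2 (adjusted p = 0.0620) or 5 (0.0961) or weight-matched library 25 (0.0674), 26 (0.0636) or 28 (0.0548). Fitting only the 2 groups also lost the call (-0.55, adjusted p = 0.0959). Without vehicle libraries 2 and 5 the fold change was -0.40 (adjusted p = 0.208). These libraries held the highest Rara values of the vehicle group, 16.6 and 20.1 CPM. Fibroblast markers summed to 206 to 409 CPM with CagriSema, 200 to 514 CPM with weight matching and 273 to 759 CPM with vehicle in quadriceps, and 1 of 3, Col1a1, fell by 1.52 (adjusted p = 0.0315). Their part in the Rara result was not tested.

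Next by p were Nr2c2, an orphan receptor (0.33 ± 0.09, adjusted p = 0.0606), Rxrg (0.27 ± 0.09, adjusted p = 0.119) and Rarg (-0.30 ± 0.11, adjusted p = 0.148). Nr2c2 passed with DESeq2 (adjusted p = 0.0212) and without vehicle library 1 (0.0378) or 6 (0.0343). Rxrg passed without vehicle library 1 (0.35, adjusted p = 0.0276) and was 0.15 without vehicle libraries 2 and 5 (adjusted p = 0.485). In CPM, Rxrg ran from 47.1 to 63.0 CPM with CagriSema, from 55.0 to 72.7 CPM with weight matching and from 40.4 to 69.8 CPM with vehicle. Among listed genes Fkbp5 rose by 1.39 (adjusted p = 0.0171), the corepressor Nrip1 rose by 0.46 (adjusted p = 0.0381), the early-response receptor Nr4a1 rose by 0.73 (adjusted p = 0.0315) and Nr1d1 fell by 0.78 (adjusted p = 0.0191). Fkbp5 averaged 35.9 ± 13.2 CPM with CagriSema, 52.2 ± 24.7 CPM with weight matching and 19.9 ± 4.88 CPM with vehicle in quadriceps.

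With CagriSema in quadriceps no receptor passed in either comparison. Against vehicle, 0.0321% of all genes passed, and 2 of 28 receptors had an unadjusted p under 0.05 by edgeR (10.3% of all genes), Rara (-0.48 ± 0.13, adjusted p = 0.232) and Rxra (0.18 ± 0.08, adjusted p = 0.431). Nr2c2 and Nr3c2 followed at 0.19 each. Without vehicle libraries 2 and 5, Rxra was 0.11 and Nr3c2 0.10, and without vehicle library 8 Nr2c2 was 0.12. Against weight matching, 0.128% of all genes passed, and 5 of 28 receptors had an unadjusted p under 0.05 (7.65% of all genes). The 4 with the lowest p were Nr1h3 (0.29 ± 0.10, adjusted p = 0.502), Esrrg (0.36 ± 0.16, adjusted p = 0.633), Rarg (0.24 ± 0.11) and Thra (0.16 ± 0.08, both adjusted p = 0.639). DESeq2 called no receptor in these 2 comparisons.

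The mean with CagriSema was above both other groups for 16 of 28 receptors in quadriceps, between them for 11 and below both for 1. The same count was not made over all genes, so it cannot be read as particular to the receptors. Esrra averaged 164 ± 18.3 CPM with CagriSema, 154 ± 17.5 CPM with weight matching and 159 ± 23.9 CPM with vehicle. Ucp3, a mitochondrial carrier listed as a PPAR target, was the only listed gene that passed between CagriSema and weight matching, at 23.3 ± 10.7 CPM with CagriSema, 80.3 ± 45.4 CPM with weight matching and 42.6 ± 13.5 CPM with vehicle (log2 difference -1.78, adjusted p = 0.0464). Ppara averaged 15.3 ± 3.34, 12.0 ± 1.72 and 13.2 ± 4.44 CPM and Ppard 33.8 ± 4.84, 30.4 ± 5.28 and 29.5 ± 4.53 CPM in the same order.

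**Figure D4:**
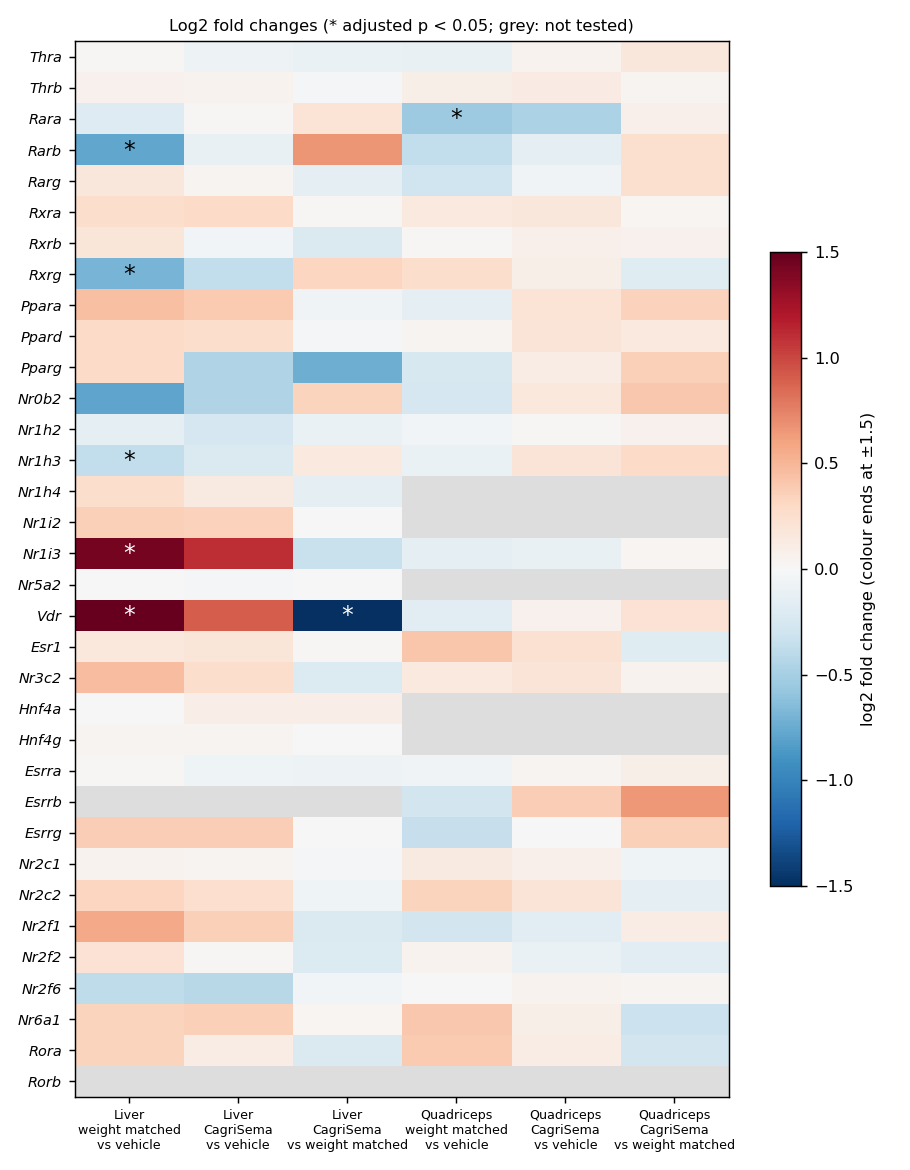
Log2 fold changes of the 34 receptors in the 3 treatment comparisons of liver (left) and quadriceps (right), with stars for an adjusted p under 0.05 and grey for receptors not tested. Stars stand at 5 liver receptors for weight matching against vehicle, at Rara for weight matching against vehicle in quadriceps, and at Vdr where CagriSema was set against weight matching in liver. The colour scale ends at 1.5.

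Whether a treatment effect differed between the tissues was tested as liver minus quadriceps over all 46 libraries. For weight matching against vehicle, 2 of 33 receptors passed, where 2.76% of all 14110 genes did. Vdr differed by 2.90 ± 0.43 (adjusted p = 7.76e-05), having risen in liver and stood at -0.15 in quadriceps. Rxrg differed by -0.96 ± 0.19 (adjusted p = 0.00265), having fallen in liver and stood at 0.27 in quadriceps. Over 4 alternative fits this Rxrg difference was -0.99 to -0.65 and passed in each (adjusted p up to 0.0367). Nr1i3 (1.58 ± 0.47, adjusted p = 0.0536) and Esrrg (0.71 ± 0.22, adjusted p = 0.0662) did not pass. Over 27 receptors tested in both tissues, 11 had positive and 5 negative fold changes in both, 9 were positive only in liver and 2 only in quadriceps. These directions were not counted over all genes.

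For CagriSema against vehicle no receptor passed, where 0.149% of all genes did, and 6 of 33 had an unadjusted p under 0.05 by edgeR (15.0% of all genes). The lowest p belonged to Rara (0.49, adjusted p = 0.166), Nr2f6 (-0.47, 0.179), Nr1h3 (-0.41, 0.190) and Nr1i3 (1.21, 0.229). Without liver vehicle libraries 4 and 6 and quadriceps vehicle libraries 2 and 5, the difference was -0.22 for Nr2f6 and -0.16 for Nr1h3 (adjusted p = 0.588 and 0.807). For CagriSema against weight matching, Vdr differed by -2.05 ± 0.41 (adjusted p = 0.0445), 1 of 33 receptors, where 0.0213% of all genes passed. That difference did not pass without the low-count filter (adjusted p = 0.0504) or with the library number as a block (-2.17, adjusted p = 0.134). Pparg (-1.09 ± 0.34, adjusted p = 0.280), Rxrb (-0.29, 0.351) and Rxrg (0.50, 0.429) did not pass. Receptors with almost no counts in quadriceps, such as Hnf4a, are among the 33 and carry little information in this test.

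Single libraries set some of the spread among the receptors. In liver, vehicle library 4 was the lowest of all 23 libraries for 15 of the 32 receptors tested and the highest for 5. It held 0.364 CPM of both Hnf4g and Nr3c2, against group medians of 4.36 and 4.98 CPM. In quadriceps, vehicle library 2 was the lowest of all 23 for 12 of 28 receptors and vehicle library 8 the highest for 10. Library 8 also had 22.8% of its counts in mitochondrial genes. Its slow myofibre markers summed to 8970 CPM, the most of the vehicle group, against a vehicle median of 1611 CPM. Over the quadriceps groups these sums ran from 1383 to 5410 CPM with CagriSema, 234 to 4339 CPM with weight matching and 428 to 8970 CPM with vehicle. The part of fibre type in the receptor values was not tested. After Nr1i3, the receptors with the largest median coefficients of variation in liver were Nr0b2 (0.457) and Vdr (0.448), and in quadriceps they were Nr0b2 (0.390) and Rarb (0.294).

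**Figure D5:**
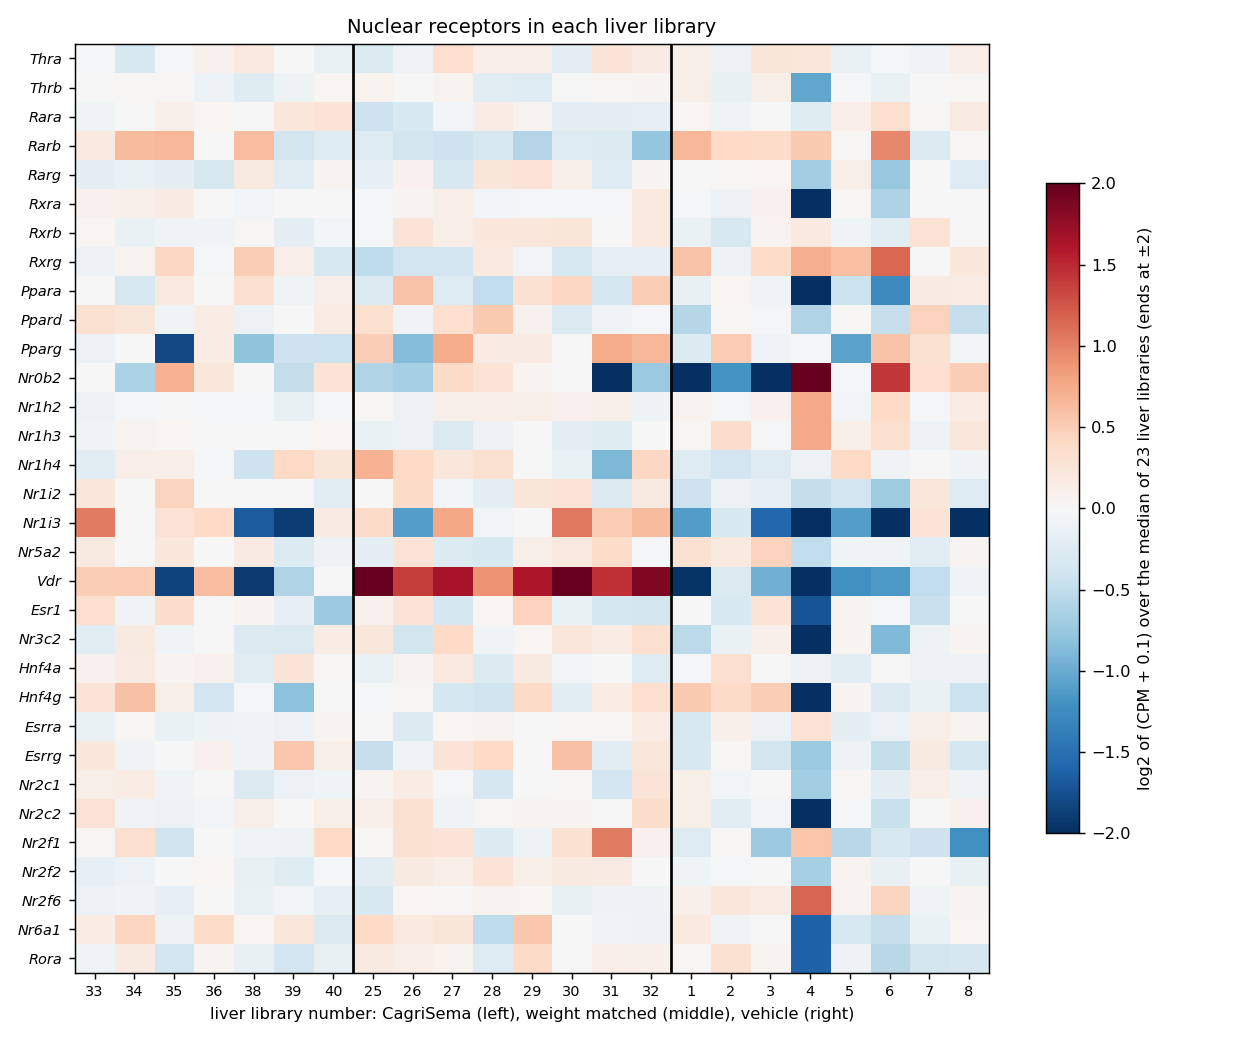
Log2 of CPM + 0.1 of 32 receptors in each of the 23 liver libraries relative to the median of those libraries, with CagriSema left, weight matching in the middle and vehicle right. Vdr is red in every weight-matched library, Nr1i3 varies within all groups, and vehicle library 4 is low for 15 receptors, Rxra (44.0 CPM) and Ppara (3.28 CPM) among them.

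None of the remaining receptors passed in a treatment comparison. In liver, the orphan receptors Rora, Nr2c1, Nr2c2, Nr2f1, Nr2f2 and Nr6a1 had log2 fold changes between 0.05 and 0.57 with weight matching and between 0.02 and 0.36 with CagriSema against vehicle, and none passed. Nr5a2 was at -0.01 in all 3 liver comparisons. Esrra and Esrrg, the oestrogen-related receptors measured there, were at 0.02 and 0.37 with weight matching. Nr3c2 averaged 5.18 ± 0.718 CPM with CagriSema, 5.95 ± 0.957 CPM with weight matching and 4.25 ± 1.88 CPM with vehicle. Esr1 had a log2 fold change of 0.16 with weight matching and 0.18 with CagriSema.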

How the data were processed

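The deposited table holds raw counts, whole numbers for each gene, with Ensembl identifiers and symbols. The authors used an RNeasy Minikit and the Twist UMI system, per the labels' protocols, and fastp 0.23.1 and STAR 2.5.2b, per the submitters' processing notes. Genome build, annotation, counting program, strand and use of molecular identifiers are not stated, so overlapping or antisense genes could share reads. Columns were matched to libraries by title, and 1 unmatched column was left out.

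In R 4.3.3, edgeR 4.0.16 fitted each tissue's 3 groups, with TMM scaling, filterByExpr, robust quasi-likelihood F tests and Benjamini-Hochberg adjustment over all genes tested. Adjusted p-values come from this test where no other tool is given. The filter kept 32 receptors in liver and 28 in quadriceps. Interactions and tissue differences used 1 fit of all 46 libraries. DESeq2 1.42.0, other scaling, no filter, 2-group fits, left-out libraries and a number block were alternatives. The edgeR fit within a tissue and the interaction for weight matching were run on simulated data, the interaction with and without the number block. The other alternatives were not.

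In each comparison the receptors past the threshold were named, and those with the lowest p up to 4. Between tissues it was the 5 called receptors at each end. Listed genes were named up to 3 per list, and others after their values were seen. Of the genes so taken, one is left out of the text. Members and lists were chosen with earlier results of these data known. Promoters are from RefSeq (GRCr8) and matched 29 of 34 receptors. None was matched for Ppard, Nr1h4, Hnf4g, Nr2f2 or Nr3c2.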

Additional observations from a re-analysis of the deposited data

Results flagged for a closer look

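Of 18 groups of called receptors tested for a sample far from the others, 1 held one, and chance marks about 1 in 20. Nr1h3 stood at 239 CPM in liver vehicle library 4, against 182 CPM in the next vehicle library. This library also had the largest share of ribosomal protein counts in liver, and its part in the Nr1h3 result was not tested beyond leaving it out, which kept the call of weight matching against vehicle.

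Treatment effects differed between liver and quadriceps for 2 receptors by edgeR's quasi-likelihood test of the difference. For weight matching against vehicle, the log2 difference was 2.90 for Vdr (adjusted p = 7.76e-05) and -0.96 for Rxrg (adjusted p = 0.00265). Over 4 alternative fits the Rxrg difference was -0.99 to -0.65 and passed in each. For CagriSema against weight matching, Vdr differed by -2.05 (adjusted p = 0.0445), which was lost with the number block and without the low-count filter.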

How the results depend on the processing

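Some counts of receptors past the threshold changed with the fit. For CagriSema against weight matching in liver, 1 receptor passed, against 2 with DESeq2, 3 with only the 2 groups fitted and 2 without vehicle libraries 4 and 6. For weight matching against vehicle in quadriceps, 1 receptor passed, against 2 with DESeq2, 0 with only the 2 groups fitted and 0 without vehicle libraries 2 and 5. With 1 library left out these counts ran from 0 to 1 and from 0 to 3. For weight matching against vehicle in liver, 5 passed and 4 to 7 did so under the alternatives. The difference between tissues in CagriSema against weight matching, 1 receptor (Vdr), became 0 without the low-count filter (adjusted p = 0.0504 by edgeR) and 0 with the number block. The causes of these changes were not tested. No direction was reversed.

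Over all genes, edgeR called 892, 45 and 68 in liver and 285, 4 and 16 in quadriceps (weight matching against vehicle, CagriSema against vehicle, CagriSema against weight matching). DESeq2 called 1346, 291 and 221, and 693, 34 and 34. Fits of only 2 groups called 414, 4 and 603, and 7, 2 and 15. Without the vehicle libraries that stood apart it was 1042, 18 and 590, and 19, 0 and 15, and without the filter 641, 13 and 45, and 131, 5 and 7. The differences between tissues, 389, 21 and 3 genes, became 224, 13 and 0 without the filter and 190, 9 and 140 without those 4 vehicle libraries.

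Library numbers are shared between tissues, but no label says that they mark a rat. Over 22 pairs the correlation of deviations was 0.00135 to 0.210, with 6 over 0.1. Of these 22 liver libraries, 18 were closest to their own number among the quadriceps libraries of the same treatment, a hint from the data only. The main fit of both tissues did not use the numbers and treated all 46 libraries as independent. With the number as a block, 2, 0 and 0 receptors and 282, 10 and 0 genes passed for the 3 differences between tissues, and 21 receptors and 7767 genes between tissues. Vdr was then -2.17 (adjusted p = 0.134) in CagriSema against weight matching. Depth limits Vdr, at 0 to 78 counts per liver library, and the receptors near 0 in quadriceps.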
